A study of Rattus norvegicus with 24 samples.

Results

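The semaphorins, their plexin receptors and the neuropilin co-receptors were followed in the left ventricle of rats given metformin. Genes were taken by name: array features (transcript clusters, each a set of probes for one transcription unit) with exactly 1 gene symbol that begins with Sema3 to Sema7 or Plxn, or that is Nrp1 or Nrp2, and for each symbol the cluster with the highest mean intensity. This gave 30 genes of the 22037 on the array with a symbol of their own, namely 20 semaphorins, 8 plexins and 2 neuropilins. Beyond the name, members were chosen by 1 measured value, the mean brightness of a cluster over all arrays, with no reference to treatment or day. This mattered for 1 gene, Sema3e, whose other cluster averaged 3.03 on the log2 scale, against 5.07 for the one used. A cluster that lists Plxnb2 also lists Mir349 and was not used.

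The animals were male Wistar rats of the RccHan:WIST line, 7 to 8 weeks old. Metformin, a biguanide given for type 2 diabetes, was delivered by gavage at 800 mg/kg for 1, 3 or 14 days in a row. Control rats received the vehicle alone, a mixture of ethanol, Kolliphor HS 15 and tap water, for the same number of days. RNA from the left ventricle apex was hybridised to Affymetrix arrays, 4 per treatment and day and 24 in all. The design text names 5 animals per group, and the remaining animals were not analysed here. No disease model was involved, so every comparison is between hearts without an induced disease.

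Semaphorins are guidance proteins that cells secrete or carry on their surface, and plexins are the receptors that turn their binding into a change of the cytoskeleton through small GTPases. Secreted class 3 semaphorins mostly need a neuropilin to hold them to a plexin, and the neuropilins also bind vascular endothelial growth factors. In the heart the family is known for shaping the outflow tract, the coronary and other vessels, and the sympathetic nerve supply, from work mostly in mice.

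The deposited intensities had array medians between 4.68 and 4.95 on the log2 scale, and arrays correlated with each other at 0.984 to 0.992 over all clusters. Array maxima ran from 999433 to 999974, which points to a rescaling after scanning, and the folds given here hold on the deposited scale. Levels of different genes come from different probes and are not set against each other, apart from the summed levels of marker lists. Those sums add intensities of different probes, so the weight of each gene in them depends on its probes. Of 8 cardiomyocyte markers 7 were measured and tested, with means between 13.42 and 19.84, far above the array medians. The atrial markers Myl7, Sln and Myl4 averaged 5.31, 7.22 and 6.11. In control day 3 replicate 2 the erythroid marker score lay 1.60 above, and the endothelial score 0.76 below, the average of all arrays. Control day 1 replicate 4 had erythroid and skeletal muscle scores 1.46 and 1.72 above that average. The erythroid score was also far from it in control day 14 replicate 2 (-1.74) and metformin day 14 replicate 4 (-1.33), the endothelial score in metformin day 14 replicate 1 (-0.74), and the atrial score in metformin day 3 replicate 4 (1.43). Values without these arrays are given where they change a call. Because the samples are pieces of whole tissue, fewer cells of a type and less RNA per cell cannot be told apart.

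Of the 30 genes, 29 were tested. A gene was tested where it exceeded the array median on at least 4 arrays, and differences were fitted with limma on log2 intensities of all 24 arrays. P-values were adjusted by Benjamini-Hochberg over 16031 genes, and a gene is called changed at an adjusted p under 0.05. Sema4g, a membrane-bound class 4 ligand, exceeded the median on 0 arrays, with values between 4.11 and 4.65, and was not tested. Plxnb3 exceeded it on 9 arrays and Sema4f on 10, so both sat at the level of the median probe set.

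Metformin hearts had less transcript of 3 genes of the family when the 3 days were averaged. They were Sema5a and Sema4d, both ligands, and Plxna4, a receptor. None was called higher. The lower Sema5a of days 1 and 3 was known before the family was chosen, so its place in these counts is not new support. The share of called genes over the whole array was 4.42%, with 3.77% lower and 0.649% higher, and no test of the family as a whole was made. The median difference of the 29 genes was -0.01, as was that of all genes tested. Taken day by day, 0 of 29 were called on day 1 (0% of all genes), 1 on day 3 (0.474%) and 0 on day 14 (0.281%). At an unadjusted limma p under 0.05 these numbers were 3 of 29 on day 1 against 6.72% of all genes, 5 on day 3 against 11.2%, 2 on day 14 against 12.7%, and 4 in the average of days against 18.3%. The treatment difference was called to vary between days for 0 of 29 (0% of all genes).

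**Figure D1:**
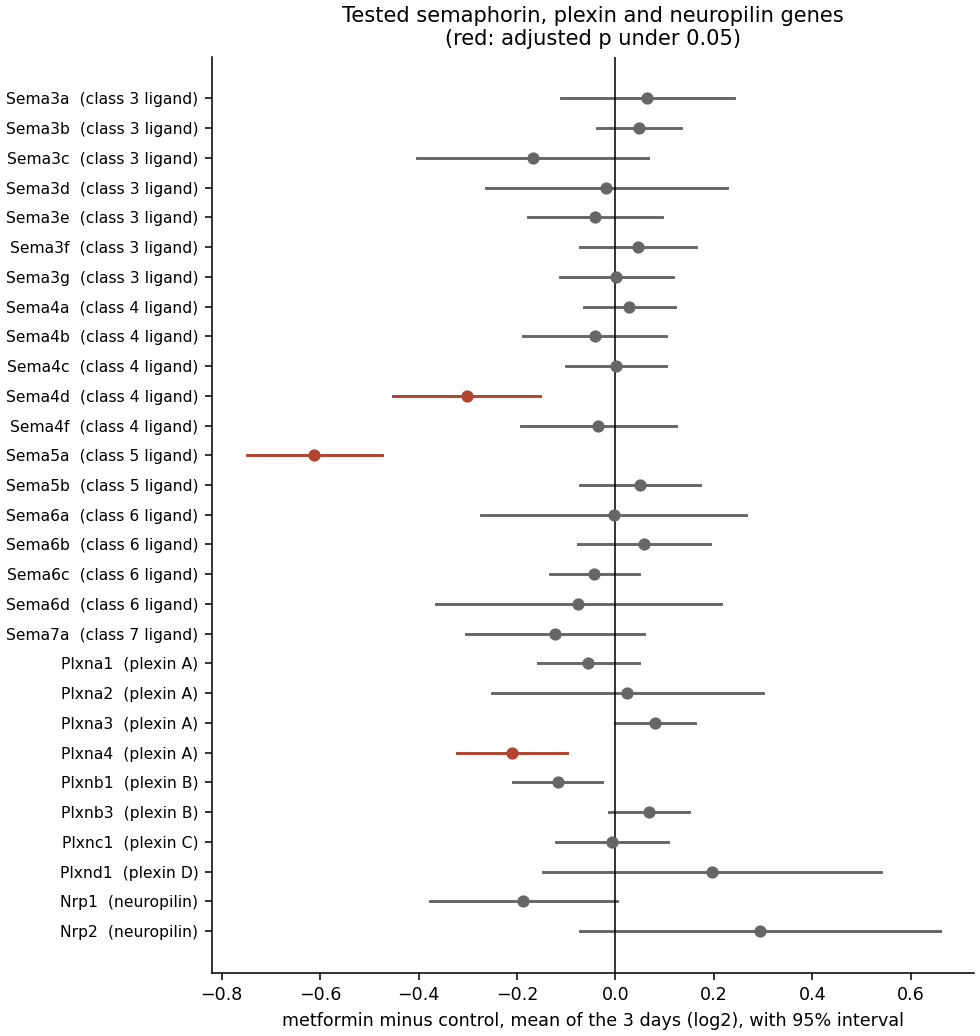
Difference between metformin and control hearts averaged over the 3 days, in log2 units on the horizontal axis, for the 29 tested genes on the vertical axis; bars are 95% intervals and red marks an adjusted p under 0.05. Sema5a stands alone at -0.61, Sema4d and Plxna4 follow at -0.30 and -0.21, and the widest bars belong to Nrp2 and Plxnd1.

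Sema5a encodes a class 5 semaphorin, a transmembrane ligand whose outer part carries thrombospondin repeats and which binds Plxnb3. On day 1 its log2 intensity was 9.49, 9.50, 9.26 and 9.22 in metformin hearts, against 9.71, 9.91, 9.97 and 10.04 in control hearts. On day 3 it was 8.92, 9.17, 8.92 and 9.35 in metformin hearts, against 9.91, 10.06, 9.84 and 9.82 in control hearts. On day 14 it was 9.62, 9.49, 9.30 and 9.34 in metformin hearts, against 10.00, 10.11, 9.61 and 9.93 in control hearts. All metformin hearts lay below all control hearts on days 1 and 3, and on day 14 the arms overlapped by 1 pair, metformin replicate 1 at 9.62 and control replicate 3 at 9.61.

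The difference in Sema5a was -0.54 on day 1 (SE 0.11, adjusted p = 0.226, limma), -0.82 on day 3 (SE 0.11, adjusted p = 0.00145) and -0.47 on day 14 (SE 0.11, adjusted p = 0.0701). Averaged over the days it was -0.61 (SE 0.07, 95% interval -0.75 to -0.47, adjusted p = 3.16e-05), a level 1.53-fold lower in metformin hearts. In this comparison Sema5a ranked 3 of 16031 genes by p. An exact two-sided permutation test of this average, with labels exchanged within days, gave p = 1.17e-05, and a single day with 4 against 4 arrays cannot go below 0.0286. The permutation test was run only for genes already called in limma, on the same arrays, and its p-values are unadjusted. It is a check of the limma p and not separate support. Day 14 alone was called without control day 14 replicate 3, at -0.57 (adjusted p = 0.0483). With only the day 3 arrays in the fit, the day 3 difference had an adjusted p of 0.0729.

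The 3 control groups held Sema5a at nearly one level, with means of 9.91 on days 1, 3 and 14. The 3 metformin groups were at 9.37, 9.09 and 9.44 on days 1, 3 and 14. The mean of metformin day 3 lay 0.28 below that of metformin day 1 (adjusted p = 0.742), a gap that was not called, and metformin days 1 and 14 lay 0.07 apart, less than the spread within groups (SD 0.17). The test of a treatment difference that varies between days gave an adjusted p of 0.993 for Sema5a. Plxnb3, its receptor, differed by 0.07 on average (SE 0.04, adjusted p = 0.367) at values near the array median.

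Sema4d encodes a class 4 semaphorin, which is membrane-bound, can be shed, is abundant on lymphocytes and platelets, and binds Plxnb1. On day 1 it measured 7.59, 7.55, 7.36 and 7.51 in metformin hearts, against 7.94, 7.72, 7.61 and 7.77 in control hearts. On day 3 it measured 7.25, 7.68, 7.41 and 7.47 in metformin hearts, against 7.79, 8.07, 7.45 and 7.87 in control hearts. On day 14 it measured 7.56, 7.47, 7.73 and 7.23 in metformin hearts, against 7.93, 7.96, 7.72 and 7.62 in control hearts. The arms were apart on day 1 and overlapped on days 3 and 14. The difference was -0.26, -0.34 and -0.31 on days 1, 3 and 14 and -0.30 on average (SE 0.07, adjusted p = 0.0176), a level 1.23-fold lower. The exact permutation p of the average, from the same check of called genes, was 0.00049.

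Plxna4, listed on the platform under its older symbol Plxna4a, encodes a plexin that serves class 3 semaphorins together with Nrp1 and class 6 semaphorins directly. It measured 7.77, 7.58, 7.67 and 7.57 in day 1 metformin hearts, against 7.66, 7.92, 7.91 and 7.80 in control hearts. On day 3 it measured 7.78, 7.71, 7.66 and 7.50 in metformin hearts, against 8.16, 7.88, 7.81 and 7.95 in control hearts. On day 14 it measured 7.79, 7.79, 7.95 and 7.48 in metformin hearts, against 7.91, 7.98, 7.97 and 7.83 in control hearts. The arms were apart on day 3 only. The difference was -0.17, -0.29 and -0.17 on days 1, 3 and 14 and -0.21 on average (SE 0.05, adjusted p = 0.0287, permutation p = 0.000414). This call is close to the threshold. It was lost with a second quantile normalization (-0.18, adjusted p = 0.103) and with cyclic loess (-0.18, adjusted p = 0.0750). Leaving out control day 1 replicate 2 or 3, control day 14 replicate 3, metformin day 1 replicate 4 or metformin day 3 replicate 4, the array with the high atrial score, raised the adjusted p to between 0.0514 and 0.0563.

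**Figure D2:**
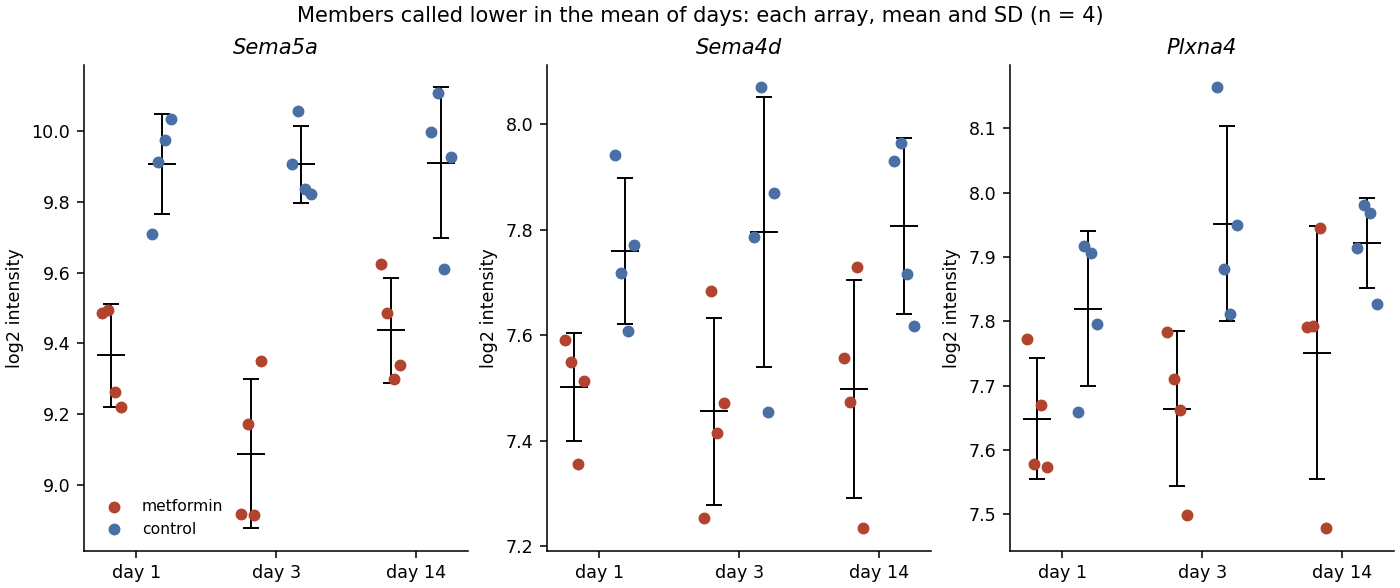
Log2 intensity of Sema5a, Sema4d and Plxna4 on the vertical axis by day on the horizontal axis, with 1 point per array and bars at the group means, metformin left of control. The Sema5a points of metformin hearts lie below every control point on days 1 and 3, those of Sema4d do so on day 1 only and those of Plxna4 on day 3 only.

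Erythroid markers were also lower on average, but not on day 14. All 7 measured of 9 listed were lower in metformin hearts averaged over the days, with a median difference of -0.63 and 0 called. All 7 were lower on day 1 and on day 3 as well, with medians of -1.17 and -0.51. On day 14 the median was 0.06, with 3 lower and 4 higher, and 0 were called on any of these days. The summed level of these markers on the log2 scale ran from 19.56 to 20.05 in metformin hearts and 20.11 to 20.45 in control hearts on day 1, from 19.69 to 19.99 and 19.89 to 20.51 on day 3, and from 19.10 to 20.02 and 18.62 to 20.13 on day 14. Hba-a1, with a mean of 19.62 against 6.38 to 17.01 for the others, makes up most of this sum. With the erythroid score in the fit, Sema5a differed by -0.62 (adjusted p = 0.00028), Sema4d by -0.24 (adjusted p = 0.0858) and Plxna4 by -0.20 (adjusted p = 0.0811), so the last 2 calls were lost. Within groups Sema4d followed the erythroid score with r = 0.44 over 24 arrays, Plxna4 with 0.06 and Sema5a with -0.03. Lymphocyte markers, 4 of 7 tested, had a median of -0.02 and 0 called. Of these Cd8a, Cd3g and Cd79b averaged 4.69, 5.00 and 5.25, near the array median, and only Cd4 lay well above it, at 8.65. The list therefore cannot show whether lymphocytes differed.

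Of the skeletal muscle markers, 7 of 8 were tested and 1 was called lower in metformin hearts averaged over the days, Casq1, a calcium store protein of fast fibres, at -0.67 (adjusted p = 0.0029). On day 1 all 7 were lower in metformin hearts with a median of -0.45. The day 1 score of the list was 1.72 in control replicate 4, against 0.06 to 0.14 in the other control hearts and -0.08 to 0.18 in metformin hearts. On day 3 and on day 14 6 of 7 markers were higher in metformin hearts, with medians of 0.07 and 0.04, and 0 of 7 were called on any of these days. Their summed log2 level, which Casq1 with a mean of 10.05 against 5.12 to 6.13 for the others makes up in large part, ran from 10.27 to 10.65 in metformin hearts and 11.17 to 11.74 in control hearts on day 1, from 9.69 to 10.44 and 10.19 to 10.73 on day 3, and from 9.77 to 10.19 and 10.03 to 10.67 on day 14. Without control day 1 replicate 4 and control day 3 replicate 2 the average differences were -0.58 for Sema5a (adjusted p = 0.000247), -0.27 for Sema4d (adjusted p = 0.0477) and -0.22 for Plxna4 (adjusted p = 0.0473). Mesothelial markers were also lower on average, 5 of 5 with a median of -0.29 and 0 called, and their part in these results was not tested. Their summed log2 level ran from 8.62 to 9.04 in metformin hearts and 8.98 to 9.31 in control hearts on day 1, from 8.73 to 9.05 and 8.88 to 9.78 on day 3, and from 8.61 to 8.96 and 8.69 to 9.33 on day 14.

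Among the other ligands no gene was called in any treatment comparison. The 7 class 3 semaphorins are secreted. Sema3a, a repellent of sympathetic axons that patterns the nerve supply of the mouse heart, differed by 0.28 on day 1 (adjusted p = 0.780), 0.08 on day 3 and -0.16 on day 14. Sema3c, needed with Plxnd1 for division of the outflow tract in mice, differed by -0.37 on day 1 (adjusted p = 0.783) and by -0.07 on both later days. The averages of Sema3b, Sema3d, Sema3e, Sema3f and Sema3g lay between -0.04 and 0.05. Sema3e binds Plxnd1 without a neuropilin, and Sema3f favours Nrp2.

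The class 4 ligands other than Sema4d were not called and had averages of 0.03 for Sema4a, -0.04 for Sema4b, 0.00 for Sema4c and -0.03 for Sema4f. Sema5b, the other class 5 gene, differed by 0.05 on average (SE 0.06, 95% interval -0.07 to 0.17), an interval that leaves out the size seen for Sema5a. Class 6 semaphorins are transmembrane ligands for A plexins. Sema6a, Sema6b, Sema6c and Sema6d differed by 0.00, 0.06, -0.04 and -0.08. Sema7a, a lipid-anchored ligand of Plxnc1 and beta1 integrin, differed by -0.12 on average (adjusted p = 0.494), and Plxnc1 by -0.01.

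Sema6b, a ligand of Plxna4, had one of the 3 smallest p-values of the family in the test of a treatment difference that varies between days. On day 3 it measured 6.33, 6.38, 6.33 and 6.12 in metformin hearts, against 6.19, 5.69, 6.25 and 6.02 in control hearts. On days 1 and 14 it ran from 6.08 to 6.28 and 5.91 to 6.43 in metformin hearts, against 6.13 to 6.40 and 6.03 to 6.17 in control hearts. The arms overlapped on every day, and the day 3 difference of 0.25 was not called (SE 0.11, adjusted p = 0.392). The lowest of these values, 5.69, was from control day 3 replicate 2, the array with the low endothelial score.

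Among the receptors, Plxna4 alone was called. Plxnb1, the receptor of Sema4d, measured 8.38, 8.51, 8.53 and 8.46 in day 3 metformin hearts, against 8.64, 8.91, 8.50 and 8.76 in control hearts. Its arms overlapped there by 1 control heart, and the difference of -0.23 was not called (SE 0.08, adjusted p = 0.196). On days 1 and 14 it differed by -0.10 and -0.02, and averaged over the days by -0.12 (adjusted p = 0.137). Met and Erbb2, receptor tyrosine kinases that associate with Plxnb1, differed by 0.00 and -0.06 on average (adjusted p = 0.998 and 0.515). The A plexins Plxna1, Plxna2 and Plxna3, which class 3 and class 6 ligands share, differed by -0.06, 0.02 and 0.08.

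Nrp1, a co-receptor for Sema3a and for vascular endothelial growth factor, was the other gene whose arms were apart on day 1. It measured 12.62, 13.03, 12.73 and 12.11 in day 1 metformin hearts, against 13.16, 13.07, 13.18 and 13.15 in control hearts. The highest metformin heart lay 0.04 below the lowest control heart, and the metformin arm was much wider than the control arm (SD 0.38 and 0.05). The difference of -0.52 was not called (SE 0.16, adjusted p = 0.497). On day 3 Nrp1 measured 12.97, 12.97, 13.12 and 12.80 in metformin hearts, against 13.11, 12.57, 13.25 and 12.79 in control hearts, a difference of 0.03. On day 14 it measured 12.70, 12.76, 13.16 and 12.80 in metformin hearts, against 13.15, 12.96, 12.82 and 12.78 in control hearts, a difference of -0.07. The arms overlapped on both later days. The test of a difference that varies between days gave Nrp1 an unadjusted p of 0.0492 and an adjusted p of 0.993 in limma, and 4.95% of all genes had an unadjusted p under 0.05.

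Counting arms that do not overlap over the family, metformin hearts were below all control hearts for Nrp1, Sema4d and Sema5a on day 1, 3 of 29 against 2.8% of all genes (4.56% in either direction). On day 3 this held for Sema5a and Plxna4, 2 of 29 against 4.2% (6.37%), and on day 14 for 0 of 29 against 4.53% (6.13%). It held on each of the 3 days for 0 of 29, against 0.168%. Sema5a is part of the day 1 and day 3 counts, and its lower level on those days was known before the family was chosen. Those 2 counts therefore cannot be read as independent of that choice. The sign of the difference was the same on all 3 days for 13 of 29 genes, against 39.1% of all genes tested. Of these, 8 were lower each time (22% of all genes) and 5 higher (17.1%). The sign of small differences depended on the scaling: for the average of days it turned for 4 of 29 genes with a second quantile normalization, 6 with centring and 3 with cyclic loess, all of them within 0.05 of 0.

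**Figure D3:**
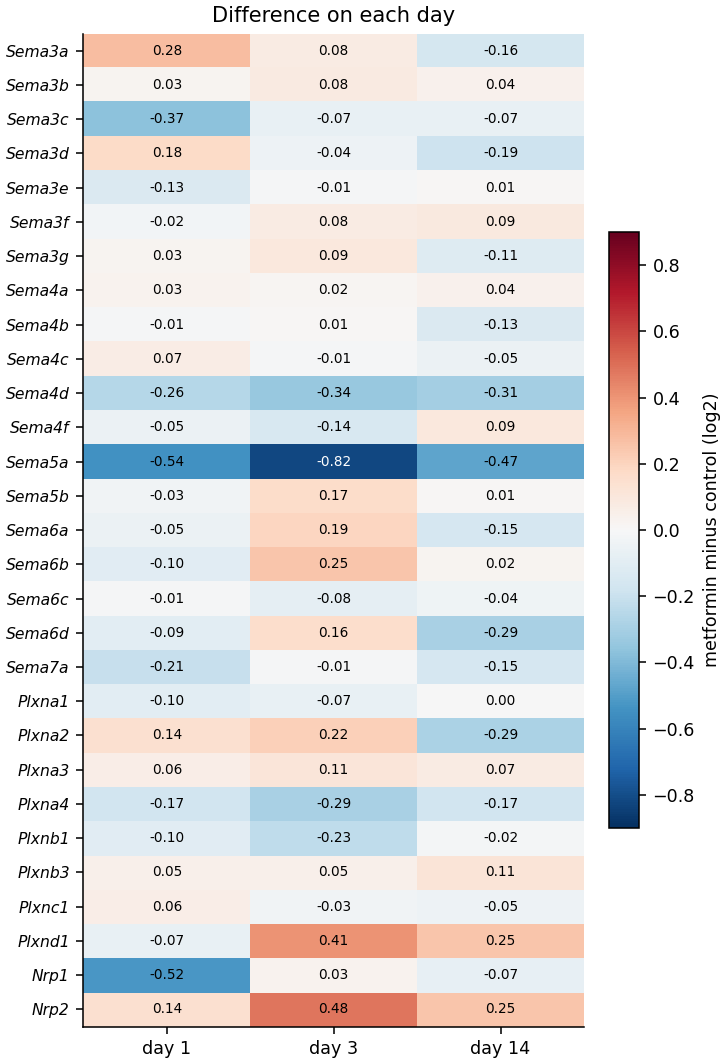
Difference between metformin and control hearts, in log2 units on the colour scale, for the 29 tested genes (rows) on each day (columns). Sema5a, Sema4d and Plxna4 are below 0 in all columns, while Nrp1 reaches -0.52 on day 1 and is within 0.07 of 0 afterwards.

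Between days of the same arm, no member of the family passed the threshold. The days also differ in the number of metformin or vehicle doses, so time is not separated from dosing. In metformin hearts 0 of 29 differed between days (0.212% of all genes called), and in control hearts 0 of 29 (0.162%). Day 14 against day 1 called 0 of 29 in metformin hearts (0.405%) and 0 of 29 in control hearts (0.381%). Day 3 against day 1 called 0 of 29 in both, with 0.0125% of all genes called in metformin hearts and 0% in control hearts. At an unadjusted limma p under 0.05, day 14 against day 1 held 3 of 29 in metformin hearts (11.9% of all genes) and 3 of 29 in control hearts (11.1%). Day 3 against day 1 held 3 in metformin hearts (6.34%) and 1 in control hearts (4.36%), and any difference between days held 3 in metformin hearts (11.2%) and 0 in control hearts (8%). Plxnb1 had the smallest p of these, 0.25 higher on day 14 than on day 1 in metformin hearts (adjusted p = 0.168) and 0.16 higher in control hearts (adjusted p = 0.441). Plxna3 was 0.18 higher in metformin hearts and 0.17 higher in control hearts (adjusted p = 0.261 and 0.329), and Sema3b 0.16 and 0.15 higher (adjusted p = 0.372 and 0.449).

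**Figure D4:**
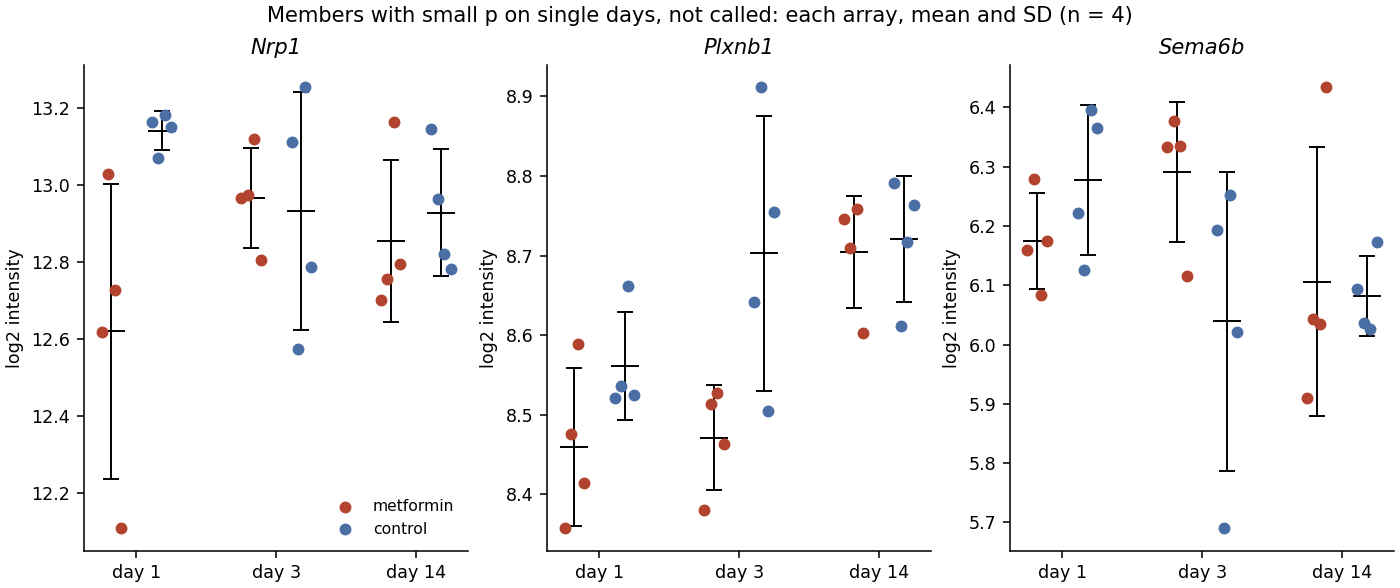
Log2 intensity of Nrp1, Plxnb1 and Sema6b on the vertical axis by day on the horizontal axis, with 1 point per array and bars at the group means, metformin left of control. The Nrp1 points of metformin hearts spread from 12.11 to 13.03 on day 1 below a tight control group, and the Plxnb1 points of both arms are higher on day 14 than on day 1 on average.

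Some genes of the family varied widely between hearts of the same group. Nrp2, Plxnd1, Sema6d and Sema6a had within-group SDs of 0.46, 0.44, 0.37 and 0.34, which ranked at percentiles 98.4, 98.0, 95.5 and 93.9 of all genes tested. Plxnd1 is a receptor of vascular endothelium, and Nrp2 a co-receptor of veins and lymphatic vessels. On day 3 Plxnd1 measured 11.27, 11.86, 11.83 and 11.45 in metformin hearts, against 11.55, 10.29, 11.96 and 10.98 in control hearts. On the same arrays Nrp2 measured 10.89, 11.53, 11.61 and 10.97 in metformin hearts, against 10.82, 10.02, 11.65 and 10.58 in control hearts. The same hearts were high and low for both genes, with control replicate 2 lowest and control replicate 3 highest.

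Taken as deviations from the group means over 24 arrays, Nrp2 and Plxnd1 correlated at r = 0.95, Plxnd1 and Sema6d at 0.94, and Plxnd1 and Sema6a at 0.92. These genes also followed the summary score of 7 endothelial markers, Plxnd1 with r = 0.94, Sema6a with 0.90, Nrp2 with 0.90 and Sema6d with 0.85. Without the arrays of the most extreme scores, control day 3 replicate 2 and metformin day 14 replicate 1, these values were 0.92, 0.90, 0.88 and 0.84. In all, 9 of 29 family members exceeded r = 0.7 with that score, against 5.41% of 16024 other genes. The other 5 were Sema5b, Sema3d, Nrp1, Sema6b and Sema4c, with r between 0.75 and 0.80. Without the same 2 arrays Sema3d and Nrp1 were at 0.72 and 0.74, and Sema5b, Sema6b and Sema4c were below 0.7, at 0.63, 0.58 and 0.63. The correlations describe arrays that share tissue composition and array scale, and no test was made of them. The smooth muscle and pericyte markers were followed as closely, with r = 0.95 for Plxnd1 and 0.85 for Nrp2, as were fibroblast markers with 0.88 and 0.80. Sema6d and Sema4c were closer to the fibroblast score (0.87 and 0.84) than to the endothelial score, and Sema5b and Nrp1 to the smooth muscle score (0.82 and 0.77). Sema6a, Nrp2, Sema3d and Sema6b were closest to the endothelial score. With the macrophage score r was 0.72 for Plxnd1 and 0.73 for Sema4c. The share of other genes above r = 0.7 was taken for the endothelial score only. Sema5a, Sema4d and Plxna4 were not among the 9 members above r = 0.7 with the endothelial score, at -0.28, -0.35 and 0.05.

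**Figure D5:**
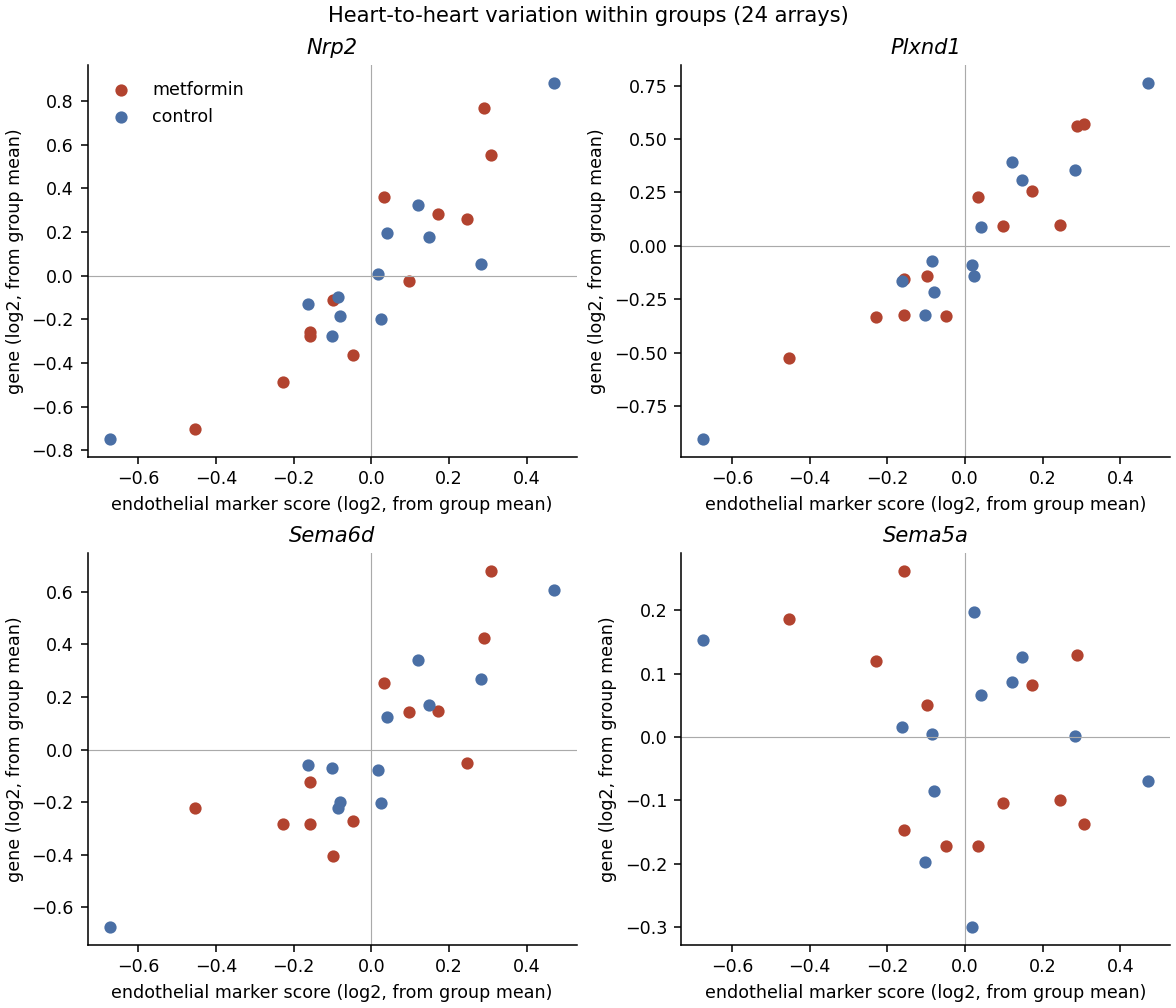
Deviation of each gene from its group mean on the vertical axis against the deviation of the endothelial marker score on the horizontal axis, both in log2 units, with 1 point per array and metformin and control marked apart. Plxnd1, Nrp2 and their companions increase with the score over 24 arrays, and Sema5a does not.

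None of these variable genes was called for treatment. Plxnd1 differed by -0.07, 0.41 and 0.25 on days 1, 3 and 14 (adjusted p = 0.987, 0.671 and 0.775), and Nrp2 by 0.14, 0.48 and 0.25 (adjusted p = 0.980, 0.615 and 0.792). Without control day 3 replicate 2 the day 3 differences were 0.11 for Plxnd1 and 0.23 for Nrp2. With the endothelial score as a covariate, an alternative chosen after the data were seen, both were called higher in metformin hearts averaged over the days. Nrp2 was higher by 0.33 (adjusted p = 0.0162) and Plxnd1 by 0.24 (adjusted p = 0.0232), against 0.29 and 0.20 without the covariate (adjusted p = 0.403 and 0.576). The share of all genes called in this average was 6.74% with the covariate, against 4.42% without it. The endothelial markers themselves were measured for 7 of 8 names, and 0 of 7 were called. On day 3, 5 of 7 were higher in metformin hearts (median 0.13), and on day 14 all 7 were lower (median -0.17). Their summed log2 level ran from 15.63 to 16.23 in metformin hearts and 15.73 to 16.16 in control hearts on day 1, from 15.63 to 16.07 and 14.49 to 16.17 on day 3, and from 14.81 to 15.86 and 15.44 to 15.73 on day 14. All 7 smooth muscle and pericyte markers were higher on day 3 (median 0.36), while 5 of 7 were lower on day 1 and 6 of 7 on day 14. Averaged over the days 6 of 7 were higher (median 0.08), and 0 were called. The part of these cell types in the Plxnd1 and Nrp2 differences was not tested.

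The start regions of 3 genes of this covarying group are shown because their transcripts moved together from heart to heart. Each is the 250 bases before the gene's start in the RefSeq annotation of rat build GRCr8, written 5′ to 3′ on the gene's strand. Capitals mark a GC box, searched as GGGCGG and its reverse complement CCGCCC, overlapping matches included. The regions are chr9:71617004-71617253 on the plus strand for Nrp2, chr4:150715188-150715437 on the minus strand for Plxnd1 and chr3:132337106-132337355 on the plus strand for Sema6d.
Nrp2: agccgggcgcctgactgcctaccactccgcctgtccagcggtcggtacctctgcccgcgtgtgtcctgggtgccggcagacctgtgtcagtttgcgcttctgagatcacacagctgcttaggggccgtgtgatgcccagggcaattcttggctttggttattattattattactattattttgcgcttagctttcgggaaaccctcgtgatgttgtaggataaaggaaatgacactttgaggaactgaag
Plxnd1: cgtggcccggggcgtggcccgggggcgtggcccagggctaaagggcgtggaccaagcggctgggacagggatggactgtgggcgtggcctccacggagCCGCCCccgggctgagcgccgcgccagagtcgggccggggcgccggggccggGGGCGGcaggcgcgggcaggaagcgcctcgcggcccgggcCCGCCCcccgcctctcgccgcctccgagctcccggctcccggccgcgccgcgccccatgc
Sema6d: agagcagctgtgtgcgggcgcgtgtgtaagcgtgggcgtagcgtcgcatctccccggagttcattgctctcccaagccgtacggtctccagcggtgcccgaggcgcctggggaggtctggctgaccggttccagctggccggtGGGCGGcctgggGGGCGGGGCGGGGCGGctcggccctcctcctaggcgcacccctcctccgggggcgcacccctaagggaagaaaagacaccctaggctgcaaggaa
The 3 regions differ in make-up, and whether this bears on the correlation of their transcripts was not tested. Nrp2 had 0 GC boxes, 13 CpG dinucleotides and 52.8% G or C, Plxnd1 had 3, 37 and 83.2%, and Sema6d had 4, 23 and 70.4%. A window was given for 22 of the 30 family members, and 12 of these held a GC box, against 30.5% of 33469 windows of that length in the annotation. The ETS core CCGGAA or its reverse complement was in 2 of 22 windows, against 12.6%, and TATAAA or its reverse complement in 0 of 22, against 12.9%. The annotation windows were not limited by gene type and held a median of 5 CpG dinucleotides, so these shares are not from matched sets. A match to such letters is a description of the sequence only.

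Other genes of the pathway gave few calls. The list of 56 holds co-receptors, growth factors that share the neuropilins, and the enzymes that act below plexins, and 53 were tested. Averaged over the days 2 were called lower and 0 higher, against 4.42% of all genes. They were Mical3, of the MICAL family of oxidising enzymes that act on the cytoskeleton, at -0.14 (adjusted p = 0.0272), and Gsk3b, a kinase of the CRMP proteins that carry Sema3a signals, at -0.12 (adjusted p = 0.0366). Both calls were lost with a second quantile normalization (adjusted p = 0.242 for Mical3 and 0.412 for Gsk3b) and with cyclic loess (0.143 and 0.188), and that of Gsk3b also with arrays centred on their median (0.0521). The median of the 53 was 0.00 and that of all genes tested -0.01. Kdr and Flt1, the growth factor receptors that pair with neuropilins, differed by 0.30 and 0.06 (adjusted p = 0.394 and 0.870). No member of the list was called on a single day. Between days in control hearts, Mical1 was 0.31 higher on day 14 than on day 1 (adjusted p = 0.0494).

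Among the other guidance families, 2 of 11 tested netrin-system genes were called lower averaged over the days, against 3.77% of all genes called lower. They were Neo1, a netrin and RGM receptor, at -0.26 (adjusted p = 0.00762), and Ntn1, the ligand netrin-1, at -0.22 (adjusted p = 0.0199), while the median of the 11 was 0.06. The Ntn1 call was lost with a second quantile normalization (adjusted p = 0.165) and with cyclic loess (adjusted p = 0.0919). Of the slits and their robo receptors 0 of 5 tested were called, and of the ephrins and Eph receptors 0 of 18, against 4.42% of all genes.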

How the data were processed

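The values are linear intensities per transcript cluster that the authors deposited as 1 table for 24 arrays. Per the submitters' processing notes RMA was used, with its version not given in the sources used here. The highest intensity is nearly the same on every array, so a later rescaling is possible and its form is unknown. The deposited intensity was taken to log2 with no offset. Gene names of the platform were brought up to date with RefSeq, by gene ID (22077 clusters), symbol (1227) or synonym (127), and 15 had no match. Each gene is its brightest cluster with 1 symbol. Genes above the array median on at least 4 arrays (16031) entered limma 3.58.1 in R 4.3.3, with 1 mean per treatment and day and Benjamini-Hochberg adjustment, and the fit was tested on simulated data. The study's label numbers mark biological replicates, and each array counts as 1 sample. Marker scores are means of log2 deviations from each marker's average. The family, the gene lists, the markers and the tests were chosen with earlier results of these data known, the lower Sema5a of days 1 and 3 among them. Genes are described array by array if called, or if among the 3 smallest p-values of the family in a treatment comparison. Alternatives cover normalization, filter, offset, cluster choice, moderation, a replicate block, marker covariates and each array left out. The number of arrays limits the precision.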

Additional observations from a re-analysis of the deposited data

Results flagged for a closer look

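In 174 groups of 4 arrays (29 genes by 6 groups), Dixon's criterion set apart 5 values, where chance alone sets apart about 1 in 20. In metformin hearts both were low and both came from day 3 replicate 4. Sema3c measured 11.17 there, with the other 3 hearts between 11.318 and 11.3225, and Sema6b measured 6.12, with the others between 6.33 and 6.38. In control hearts all 3 were high. Plxna3 measured 6.10 in day 1 replicate 2, with the others between 5.88 and 5.91, and Plxnb1 measured 8.66 in day 1 replicate 3, with the others between 8.52 and 8.54. Plxnd1 measured 11.44 in day 14 replicate 1, with the others between 10.89 and 10.96. None of these values lies in Sema5a, Sema4d or Plxna4.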

How the results depend on the processing

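Sema5a averaged over the days was called under all 14 alternatives to the chosen processing, at -0.66 to -0.56 (adjusted p from 1.61e-05 to 0.00146), and with each array left out in turn at -0.65 to -0.59. Its day 3 difference ran from -0.91 to -0.76 with 1 array left out, and was lost at -0.82 (adjusted p = 0.0729), leaving 0 of the family called and 3 genes over the whole array, with only the day 3 arrays in the fit. Its day 1 difference was not called under any alternative and ran from -0.61 to -0.49 with 1 array left out. Its day 14 difference ran from -0.57 to -0.41 and became called with arrays centred on their median (-0.57, adjusted p = 0.0297), with an offset of 64 (-0.44, adjusted p = 0.0462) and with the endothelial covariate (-0.51, adjusted p = 0.0391). The number of family members called on day 14 was then 1, 1 and 2, the second of the last being Plxnd1, while the share of all genes called was 1.19%, 0.892% and 1.09% in place of 0.281%, and it ran from 0 to 1 with 1 array left out. Averaged over the days, 1 member was called with the erythroid covariate and 5 with the endothelial covariate (Nrp2 and Plxnd1 added), against 2.09% and 6.74% of all genes, and 2 to 3 with 1 array left out. With the endothelial covariate 1 member, Plxnd1, was called between days 14 and 1 in metformin hearts. Sema4d and Plxna4 were the calls lost with the erythroid covariate, and Plxna4 was also lost with a second quantile normalization (-0.18, adjusted p = 0.103) and with cyclic loess (-0.18, adjusted p = 0.0750). The endothelial and macrophage covariates were chosen after the data were seen, and the cause of these changes was not tested. Over all genes the number called in the average of days was 708 with 85.3% lower, 384 with 69.0% lower after the second quantile normalization, 903 with 97.2% lower after centring, 438 with 77.4% lower after cyclic loess, 335 with 81.2% lower with the erythroid covariate and 1081 with 78.1% lower with the endothelial covariate. The differences of Sema5a, Sema4d and Plxna4 kept their sign under all alternatives run for them. Among the differences of the 29 genes on single days or averaged, those that changed sign under a scaling were all uncalled and at most 0.09 in size. Same-numbered arrays of a day correlated at -0.15 to 0.11 over 12 pairs, 2 of them above 0.1. No broad shared variation by number was thus seen over all genes, which cannot exclude a pairing that moves few genes. With the replicate number as a block Sema5a differed by -0.61 (adjusted p = 0.00146) and the same 3 genes were called. Sema4g, Sema4f and Plxnb3 lie at or below the array median, where signal over background limits what can be seen.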
